A study of Saccharomyces cerevisiae with 8 samples.

Results

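The ribosome biogenesis genes described here are the yeast (Saccharomyces cerevisiae) genes whose symbol is UTP, RRP, NOP, NOC, NSA or DBP followed by a number, without DBP1 and DBP5. The rule uses names and no measured value. It takes in 65 genes of the RefSeq gene table, of which 64 had spots on the arrays, among 5539 genes in all. NOP10, a protein of the box H/ACA particles that guide pseudouridine formation, had no spot under its name and is not analysed here. The names are not a complete list of the process, so lists chosen from textbook knowledge stand beside them. These hold 82 other assembly factors and 20 genes of RNA polymerases I and III. The latter are called subunits below, although RRN3 among them does not encode a subunit.

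Each of 8 two-colour spotted arrays set RNA of 1 strain given 10 mM glycine in minimal medium (channel 1) beside RNA of that strain in minimal medium alone (channel 2), both in growth at steady state to early log phase. The strains were the deletion-set strains bas1 (Y06015, replicates 1 and 2), bas2 (Y03803, replicates 1 and 2), gcn4 (Y00249, 1 array) and shm2 (Y02669, 1 array), and the parent strain BY4741 (replicates 1 and 3). Each deletion was represented by a single strain number. BAS1 and BAS2 (PHO2) encode transcription factors that act together on purine genes, GCN4 encodes the factor that switches on amino acid synthesis genes, and the product of SHM2 is a cytosolic serine hydroxymethyltransferase. A deleted gene is missing from both channels of its array, so the ratio cannot check the strain label.

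Ribosomes are assembled in the nucleolus. RNA polymerase I makes a long precursor RNA, the small subunit processome folds and cuts its first part around the U3 small nucleolar RNA, and a different set of factors builds the large subunit on the rest. RNA helicases of the DEAD-box family rearrange the precursor, box C/D particles methylate it, and the exosome trims its 3′ ends. In yeast the genes of this process are known to be transcribed together, high in fast growth and low under stress or starvation.

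All values below are log2 channel ratios, averaged over the spots of a gene and centred on the median gene of the array, so 0 is the middle gene and 1 is a doubling of the ratio relative to it. The sources do not give the direction of the ratio. GCV1, a subunit of the glycine cleavage system that glycine is known to induce, stood between -6.27 and -0.20 on the 6 arrays that had a value, so RNA with a negative value was likely more abundant with glycine. That reading is not settled for single arrays, because bas1 replicate 1 and BY4741 replicate 1 correlated at -0.30 over all spots. Bas1 replicate 1 also correlated at -0.11 with gcn4. Its other correlations were 0.58 with bas2 replicate 1, 0.22 with BY4741 replicate 3 and with shm2, 0.08 with bas2 replicate 2 and 0.05 with bas1 replicate 2. GCV1 stood at -1.17 on bas1 replicate 1 and had no value on bas1 replicate 2. Signs therefore stand as deposited, and with the bas1 arrays turned round every bas1 ratio and mean changes sign, while the difference bas1 minus BY4741 takes other values, which are given beside it. A ratio from a whole culture cannot tell a change in some cells from a smaller change in all of them.

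Arrays differed in spread and in missing spots, and both touch the genes below. The SD over all genes was 0.820 and 2.07 on bas1 replicates 1 and 2, 0.589 and 1.22 on bas2 replicates 1 and 2, 1.11 on gcn4, 0.733 on shm2, and 0.972 and 0.379 on BY4741 replicates 1 and 3. Over the 64 genes it was 1.04, 1.37, 0.405, 0.682, 1.29, 0.755, 1.04 and 0.229 in the same array order. Bas1 replicate 2 had no value at 5465 of 12800 spots and lacked 19 of the 64 genes, among them all 4 measured members of the UTP-B subcomplex. Bas2 replicate 2 lacked UTP11, UTP18 and UTP22, gcn4 lacked RRP36 and shm2 lacked NOP9, whereas bas1 replicate 1, bas2 replicate 1 and both BY4741 arrays had all 64. For bas2 replicate 1 the labels conflict, with BY4741 as source name but bas2 in the title, and the gene name zap1 also stands in the title of BY4741 replicate 3. Both arrays were kept where the main part of their titles puts them, and the medians, the counts of genes past the adjusted threshold, the named genes' values and the shares of bas1 and bas2 genes beyond BY4741 were recomputed without each.

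**Figure D1:**
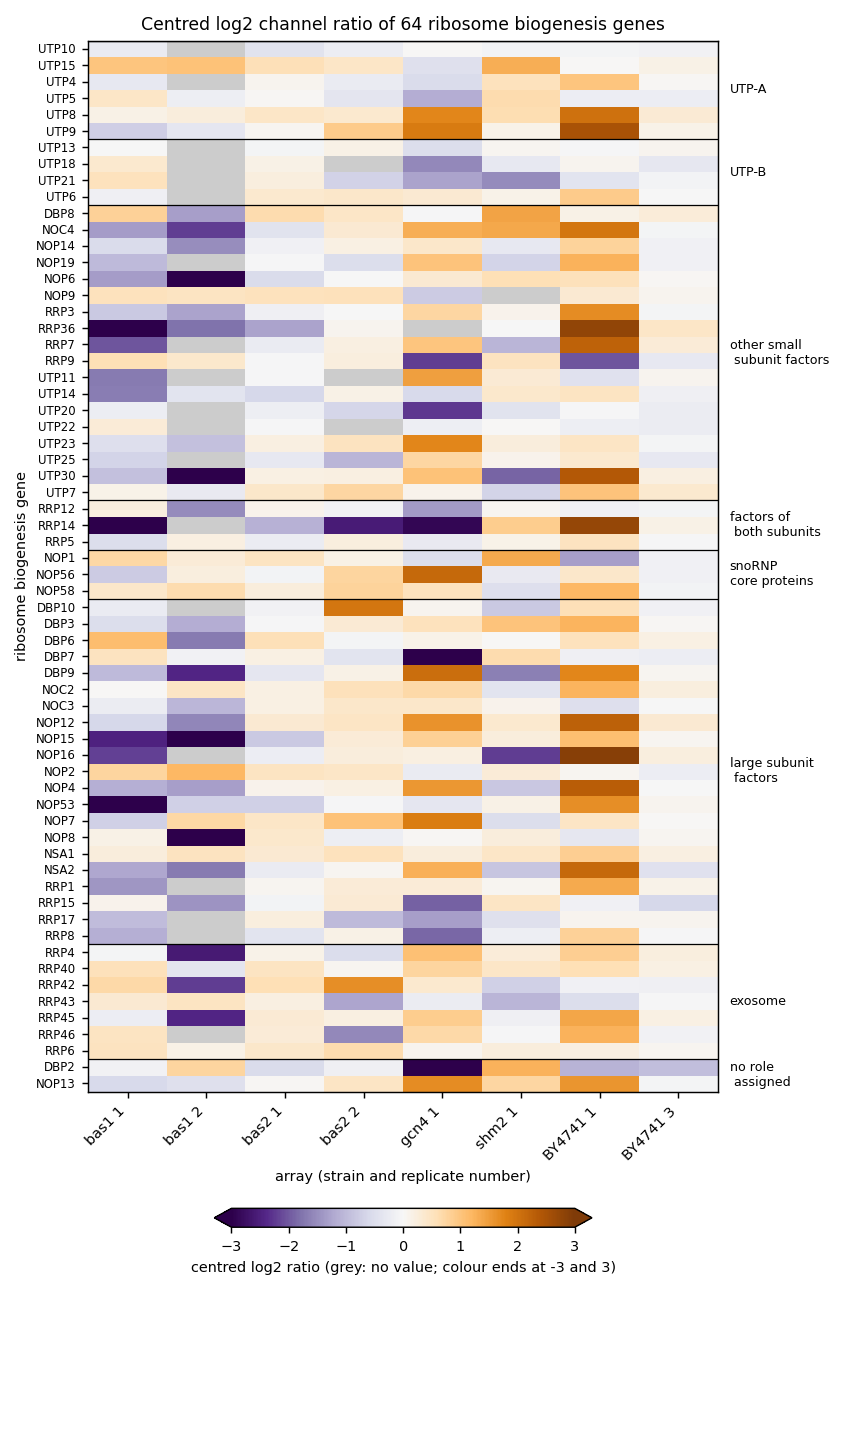
Centred log2 ratio of each of the 64 ribosome biogenesis genes (rows, by role) on each of the 8 arrays (columns), with grey for no value. The 2 bas1 columns hold most of the strongly negative values, BY4741 replicate 1 holds many strongly positive ones, and BY4741 replicate 3 and bas2 replicate 1 stay close to 0.

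The genes did not sit at 1 common level across the series. Their median was -0.23 and -0.71 on bas1 replicates 1 and 2, 0.08 and 0.20 on bas2 replicates 1 and 2, 0.24 on gcn4 and 0.10 on shm2, against 0.56 and -0.00 on BY4741 replicates 1 and 3. By construction the median of all genes is 0 on every array. Positive ratios were held by 39.1% and 33.3% of the genes on the bas1 arrays, 56.3% and 67.2% on the bas2 arrays, 61.9% on gcn4 and 60.3% on shm2, against 71.9% and 48.4% on BY4741 replicates 1 and 3. BY4741 thus held both the highest median of the series and one at the middle gene.

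The wide tails sat on different sides in different strains. Ratios of -1 or lower were found for 14 of 64 genes (21.9%) on bas1 replicate 1 and 21 of 45 (46.7%) on bas1 replicate 2, where 11.1% and 21.4% of all genes lay that low. Ratios of 1 or higher were found for 24 of 64 genes (37.5%) on BY4741 replicate 1 and 16 of 63 (25.4%) on gcn4, where 15.1% and 13.2% of all genes lay that high. On gcn4 another 12 genes (19.0%) stood at -1 or lower, where 16.4% of all genes lay that low. The genes were thus spread to both sides there, with a low side close to that of all genes. On BY4741 replicate 3 no ribosome biogenesis gene reached 1 in either direction. Of all genes there, 0.90% lay at 1 or higher and 1.23% at -1 or lower.

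**Figure D2:**
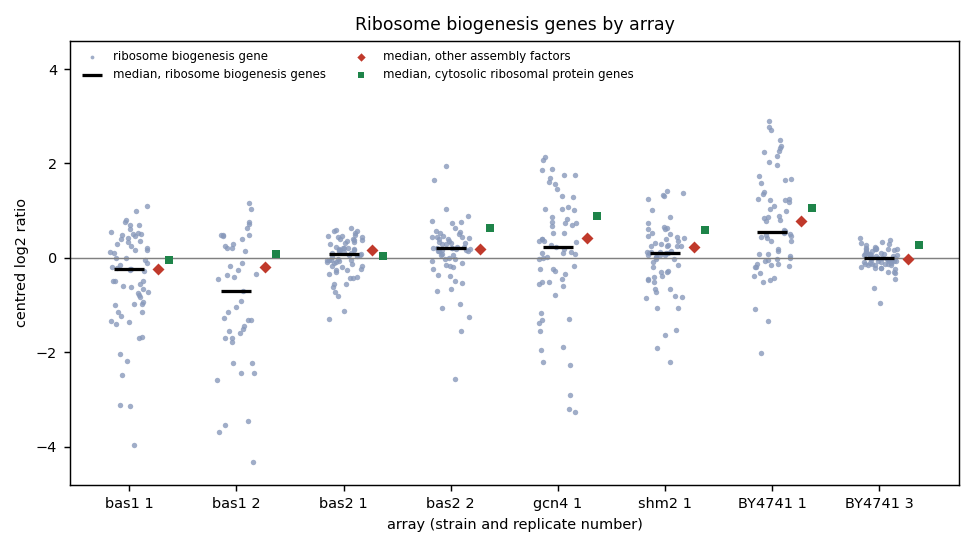
Centred log2 ratio (vertical axis) of each ribosome biogenesis gene (points) on each array (horizontal axis), with the median of these genes (bar), of 82 other assembly factors (diamond) and of 133 cytosolic ribosomal protein genes (square). The bar lies below 0 on both bas1 arrays and is highest on BY4741 replicate 1, at 0.56.

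The medians of the other assembly factors and the polymerase subunits had the sign of these genes' median on every array, though often another size. The 82 other assembly factors had medians of -0.23 and -0.20 on the bas1 arrays, 0.17 and 0.19 on the bas2 arrays, 0.43 on gcn4 and 0.23 on shm2, against 0.78 and -0.02 on BY4741 replicates 1 and 3. The 20 polymerase I and III subunits had medians of -0.17, -0.62, 0.34, 0.34, 0.69 and 0.46 on the deletion-strain arrays in that order, against 0.64 and -0.03 on BY4741. Cytosolic ribosomal protein genes, whose products the assembly factors fit together, had medians of -0.04, 0.08, 0.03, 0.64, 0.88 and 0.60, against 1.05 and 0.28. The ribosomal protein median was the lower of the pair on bas2 replicate 1 and the higher on every other array, and whether the lists differ was not tested.

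The following paragraphs ask, strain by strain, whether a gene's ratio lay away from the middle gene and whether it differed from BY4741. Both questions were put to a limma fit over all 8 arrays and all genes, with p-values adjusted by the Benjamini-Hochberg method over the genes tested. Every SE below comes from this fit, which shares the spread between arrays over the strains and in part over genes. The n beside an SE counts the arrays of that strain. No ribosome biogenesis gene passed an adjusted p of 0.05 in any strain or any difference. Over all genes the share that passed was also 0% in bas1 (of 3444 genes), bas2 (of 4897), gcn4 (of 5378), shm2 (of 5469) and BY4741 (of 5512), and 0% in each of the 4 differences from BY4741. The values that follow describe these arrays, and genes past an unadjusted p of 0.05 are counted beside the share of all genes that passed it.

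In bas1, 45 of the 64 genes had a value on both arrays, and 30 of these had a negative mean. Their median was -0.53, whereas the median of all 3444 genes tested was 0.13. Negative on both arrays were 20 of the 45 (44.4%), against 25.3% of all genes, and positive on both were 11 (24.4%), against 35.7%. At an unadjusted p of 0.05, 8 negative genes passed (17.8%), where 6.5% of all genes did, and 2 positive genes passed (4.44%), where 9.84% of all genes did. With both bas1 arrays turned round the median was 0.53, and 30 of the 45 genes were positive. The size of the median rested on the choices made. It was -0.30 over the 39 genes with a value at every spot, -0.32 with the arrays scaled to a common spread, -0.23 without bas1 replicate 2 and -0.71 without bas1 replicate 1, and -0.81 without centring, where the median of all genes was -0.15.

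The lowest bas1 means belonged to factors of both subunits. NOP15 (YNL110C), which binds the large subunit precursor RNA, stood at -2.47 and -4.33 on bas1 replicates 1 and 2, against 1.10 and 0.06 on BY4741 replicates 1 and 3. The bas1 mean was -3.40 ± 0.59 (SE, n = 2, adjusted p = 0.289), and the groups did not overlap. The value on bas1 replicate 2 rested on 1 spot. RRP36 (YOR287C), a factor of the early cuts that release the small subunit RNA, stood at -3.95 and -1.78 on the bas1 arrays, against 2.77 and 0.43 on the BY4741 arrays. Its sign was thus opposite in the 2 strains on every array, and its bas1 mean was -2.87 ± 0.81 (SE, n = 2, adjusted p = 0.289).

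NOP6 (YDL213C), an RNA-binding protein of the early small subunit particle, stood at -1.36 and -3.53 on the bas1 arrays, against 0.55 and 0.04 on the BY4741 arrays. UTP30 (YKR060W), a processome protein related in sequence to ribosomal protein L1, stood at -0.93 and -3.46, against 2.38 and 0.19. NOP53 (YPL146C), which brings the exosome to the large subunit precursor, stood at -3.10 and -0.71, against 1.66 and 0.08. All 3 were negative on both bas1 arrays and positive on both BY4741 arrays. NOP8, a factor of large subunit assembly, shows how far bas1 arrays could part, at 0.16 and -3.70 on replicates 1 and 2. Its value on replicate 2 rested on 1 spot.

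A few genes stood above the middle on both bas1 arrays. UTP15 (YMR093W), of the UTP-A subcomplex that joins the precursor RNA first, stood at 1.00 and 1.04, against 0.00 and 0.16 on BY4741 replicates 1 and 3, with a bas1 mean of 1.02 ± 0.25 (SE, n = 2, adjusted p = 0.289). NOP2 (YNL061W), which methylates a cytosine of the large subunit RNA, stood at 0.76 and 1.17, against 0.05 and -0.21. The bas1 pair was closer together for these genes than for those at the low end. NOP58, NOP9 and RRP9 followed with bas1 means of 0.53, 0.50 and 0.50.

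The difference bas1 minus BY4741 lay below 0 for 35 of 45 genes, with a median of -0.65, while the median of all 3429 genes tested was 0.11. Below both BY4741 arrays on both bas1 arrays were 21 of the 45 genes (46.7%), against 22.4% of all genes, and above both were 9, against 31.4%. An unadjusted p of 0.05 was passed by 11 negative differences (24.4%), where 5.8% of all genes did, and 3 positive ones (6.67%), where 8.28% did. The smallest adjusted p, 0.350, was shared by several of the genes. With the bas1 sign turned the median difference was 0.19, against -0.16 over all genes, and 27 of the 45 genes were positive. Above both BY4741 arrays then lay 13.3% of the 45 genes, against 14.5% of all genes, and below both lay 20%, against 24%. With that sign 0% of all genes passed an adjusted p of 0.05, and an unadjusted p of 0.05 was passed by 2 positive differences, where 2.65% of all genes did, and 1 negative one, where 4.43% did.

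Both ends of this difference are seen gene by gene. RRP36 differed by -4.47 ± 1.15 (SE, adjusted p = 0.350), NOP15 by -3.98 ± 0.83, UTP30 by -3.48 ± 1.11, NOP53 by -2.77 ± 0.99 and NOP6 by -2.74 ± 0.80. RRP9 (YPR137W), a protein of the U3 particle, differed by 1.66 ± 0.65, with 0.61 and 0.40 on the bas1 arrays, against -2.02 and -0.29 on the BY4741 arrays. DBP2 (YNL112W), a helicase that acts on messenger and ribosomal RNA, differed by 1.34 ± 0.46. NOP1 (YDL014W), the methyltransferase of box C/D particles known elsewhere as fibrillarin, differed by 1.23 ± 0.53, with 0.70 and 0.30 in bas1, against -1.33 and -0.14 in BY4741. For RRP9 and NOP1 the distance to BY4741 replicate 1 was far larger than that to replicate 3. With the bas1 sign turned the differences were 1.27 for RRP36, 2.82 for NOP15, 0.91 for UTP30, 1.04 for NOP53 and 2.15 for NOP6. Those of RRP9, DBP2 and NOP1 stayed positive, at 0.65 ± 0.65, 0.70 ± 0.46 and 0.23 ± 0.53. Only DBP2 among them then lay above both BY4741 arrays on both bas1 arrays.

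**Figure D3:**
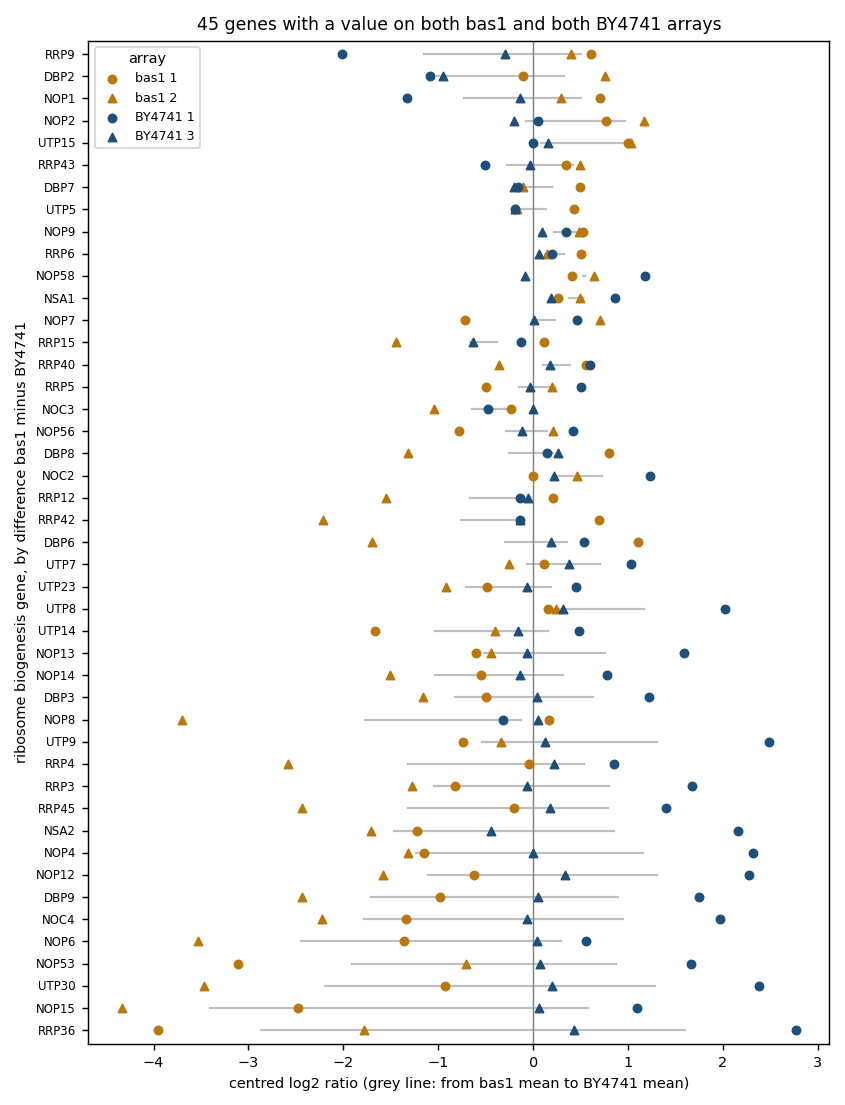
Centred log2 ratio (horizontal axis) on the bas1 arrays (orange) and the BY4741 arrays (blue) for the 45 genes with a value on all 4 (rows, from the highest difference bas1 minus BY4741 at the top to the lowest). In the lower rows both bas1 points lie left of both BY4741 points, and the points farthest right are those of BY4741 replicate 1.

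Single arrays moved this difference. Without bas1 replicate 1 the median over the 45 genes was -1.12, where that of all genes was -0.04. Bas1 then rests on replicate 2, the array with the widest spread, which is assumed to vary like the other strains. Without bas1 replicate 2 the median over 64 genes was -0.69. It was -0.52 without BY4741 replicate 1 and -1.0 without BY4741 replicate 3. Without centring the median was -1.42, while the median of all genes moved to -0.65. The median of the bas1 means was -0.71 without bas1 replicate 1 and -0.23 without bas1 replicate 2.

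Array titles came in 2 forms, one with the words gly and steady (bas1, bas2, gcn4 and BY4741 replicates 1) and one ending in ss (bas1 and bas2 replicates 2, shm2 and BY4741 replicate 3), and the labels do not say what the forms mean. Within the first form the median difference from BY4741 replicate 1 was -1.01 in bas1, -0.64 in bas2 and -0.55 in gcn4, where all genes had -0.00, -0.02 and -0.07. Within the second form the median difference from BY4741 replicate 3 was -0.78 in bas1, 0.16 in bas2 and 0.07 in shm2, where all genes had -0.01, -0.02 and 0.01. The bas1 difference was thus negative within both forms, and the bas2 difference had opposite signs in them. With the bas1 sign turned the bas1 medians were -0.29 in the first form and 0.63 in the second.

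The same difference was taken for other genes of the process. Of 58 other assembly factors, 34 (58.6%) lay lower in bas1 than in BY4741, with a median of -0.31, where 45.8% of all genes lay lower. At an unadjusted p of 0.05 there were 11 negative ones (19%) and 4 positive ones (6.9%), beside the 5.8% and 8.28% of all genes. Of 15 polymerase subunits 11 lay lower, with a median of -0.49, and 94 of 130 ribosomal protein genes, with a median of -0.63. With the bas1 sign turned 35 of the 58 assembly factors, 7 of the 15 polymerase subunits and 129 of the 130 ribosomal protein genes lay lower, with medians of -0.22, 0.01 and -0.72, where 57.3% of all genes lay lower.

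In bas2, 61 genes had a value on both arrays, 34 with a positive mean and 27 with a negative one. Their median was 0.10, and that of all 4897 genes tested was 0.02. Positive on both arrays were 24 (39.3%), against 31.4% of all genes, and negative on both were 9 (14.8%), against 29.1%. At an unadjusted p of 0.05, 0 genes passed on either side, where 2.61% of all genes passed on the positive and 3.1% on the negative side. The spread (SD) of the genes was smaller than that of all genes on both bas2 arrays, at 0.405 and 0.682 against 0.589 and 1.22.

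The lowest bas2 mean was that of RRP14 (YKL082C), which takes part in making both subunits, at -1.12 and -2.56 on replicates 1 and 2, against 2.72 and 0.15 on the BY4741 arrays. The bas2 mean was -1.84 ± 0.75 (SE, n = 2, adjusted p = 0.772), and its value on replicate 2 rested on 1 spot. RRP42 (YDL111C), a ring subunit of the exosome, had the highest bas2 mean, with 0.59 and 1.64. DBP10, a helicase of the large subunit, stood at -0.11 and 1.96, and NOP7, the yeast pescadillo protein of the large subunit, at 0.44 and 1.03. The exosome subunit RRP46 stood at 0.29 and, from 1 spot, at -1.55. Single genes thus parted between the bas2 arrays even where the median did not.

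The difference bas2 minus BY4741 had a median of -0.28 over the 61 genes, against -0.08 over all 4874 genes tested, and was negative for 41. Below both BY4741 arrays on both bas2 arrays were 7 genes (11.5%), against 20.8% of all genes, and above both were 11, against 19.8%. An unadjusted p of 0.05 was passed by 1 negative difference (1.64%, against 0.923% of all genes) and 0 positive ones, against 0.964%. That gene was RRP14, which differed by -3.28 ± 1.06 (SE, adjusted p = 0.853). RRP36 differed by -2.20 ± 1.10, with -1.28 and 0.08 on the bas2 arrays, against 2.77 and 0.43 on the BY4741 arrays. Without BY4741 replicate 1 the median difference was 0.08, so its sign rested on that array.

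On the single gcn4 array, 39 of 63 genes were positive, with a median of 0.24. At an unadjusted p of 0.05, 6 positive genes passed (9.52%, against 4.33% of all genes) and 9 negative genes (14.3%, against 7.38%). The test takes its spread from the replicated strains. NOP56 (YLR197W), a core protein of box C/D particles, had the highest ratio at 2.14, followed by the helicase DBP9 at 2.07 and UTP9, of the UTP-A subcomplex, at 1.88. In BY4741, NOP56 stood at 0.42 and -0.12, below its gcn4 value, whereas UTP9 stood at 2.49 on BY4741 replicate 1.

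The lowest gcn4 ratios belonged to DBP7 (YKR024C), a helicase of the large subunit, at -3.25, to DBP2 at -3.20 and to RRP14 at -2.90. DBP7 had the smallest adjusted p of all strain means of these genes (0.216, SE 0.44), and its spots stood at -3.85 and -2.66. The spots of RRP14 stood at -5.004 and -0.80, so its mean rests on spots that parted by 4.21. UTP20 (YBL004W), a large protein of the processome with the longest coding sequence of the set, stood at -2.27 on gcn4 and between -0.65 and -0.02 on its other 6 arrays, so it was negative wherever it was measured.

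The difference gcn4 minus BY4741 had a median of -0.05 over 63 genes, against -0.01 over all 5353 genes tested. It was 0.15 without BY4741 replicate 1 and -0.55 without BY4741 replicate 3. The gcn4 value lay below both BY4741 arrays for 24 genes (38.1%), against 33.7% of all genes, and above both for 13 (20.6%), against 29.4%. Past an unadjusted p of 0.05 were 5 negative differences (7.94%, against 2.8% of all genes) and 2 positive ones (3.17%, against 0.71%). DBP7 differed by -3.07 ± 0.53 (SE, adjusted p = 0.774) and RRP14 by -4.33 ± 1.31. RRP8, which methylates an adenine of the large subunit RNA, differed by -2.28 ± 0.64, and its gcn4 spots stood at -2.87 and -0.91. NOP56 differed by 2.00 ± 0.69, NOP7 by 1.63 ± 0.74 and UTP11 by 1.63 ± 0.60.

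On the single shm2 array, 38 of 63 genes were positive, with a median of 0.10. At an unadjusted p of 0.05, 2 positive genes passed (3.17%, against 2.14% of all genes) and 1 negative gene (1.59%, against 2.67%). The highest ratios were those of DBP8, a small subunit helicase, at 1.41, NOC4, which works with Nop14 in the small subunit, at 1.37 and NOP1 at 1.34. The lowest were those of NOP16, a large subunit factor, at -2.21, UTP30 at -1.90 and DBP9 at -1.64. The spots of NOP16 on this array stood at -4.41 and -0.01 and those of UTP30 at -3.57 and -0.23, so these low means came from 1 spot each.

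The difference shm2 minus BY4741 had a median of -0.32 over 63 genes, against -0.00 over all 5442 genes tested. It was 0.07 without BY4741 replicate 1. The shm2 value lay below both BY4741 arrays for 24 genes (38.1%), against 36.7% of all genes, and above both for 16 (25.4%), against 36.6%. Past an unadjusted p of 0.05 were 3 negative differences (4.76%, against 2.46% of all genes) and 3 positive ones (4.76%, against 1.4%). DBP2 stood at 1.25 on shm2, against -1.08 and -0.95 on the BY4741 arrays, a difference of 2.27 ± 0.57 (SE, adjusted p = 1.00). NOP1 differed by 2.07 ± 0.66 and RRP9 by 1.66 ± 0.79, while NOP16 differed by -3.78 ± 1.22, UTP30 by -3.19 ± 1.33 and DBP9 by -2.54 ± 0.96. All 4 differences are taken from the same 2 BY4741 arrays, so a gene that is extreme on BY4741 replicate 1 recurs in them.

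In BY4741 itself, 46 of 64 genes had a positive mean, with a median of 0.31, while the median of all 5512 genes tested was -0.00. Positive on both arrays were 27 genes (42.2%), against 32.1% of all genes, and negative on both were 14 (21.9%), against 32.2%. At an unadjusted p of 0.05, 1 positive gene passed (1.56%, against 1.67% of all genes) and 1 negative gene (1.56%, against 1.72%). The smallest adjusted p was 0.848.

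The highest BY4741 means came from replicate 1. RRP36 averaged 1.60 ± 0.79 (SE, n = 2), NOP16 averaged 1.56 ± 0.71 with 2.90 and 0.23 on the arrays, and RRP14 averaged 1.43 ± 0.76. UTP9 averaged 1.31 and NOP12, an RNA-binding protein of large subunit assembly, averaged 1.30. RRP9 had the lowest mean at -1.15 ± 0.46, followed by DBP2 at -1.02 ± 0.33 and NOP1 at -0.73 ± 0.38. For DBP2 the BY4741 arrays lay close together, at -1.08 and -0.95. RRP15 and RRP43 followed at -0.38 and -0.27. Without BY4741 replicate 1 the median over the genes was -0.00, and without replicate 3 it was 0.56.

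Read by role, the low bas1 values were spread over large and small subunit factors, with fewer in the UTP-A subcomplex and the C/D core. Of the 16 large subunit factors tested in bas1, 12 had a negative mean, with a median of -0.74. Of 12 small subunit factors outside the UTP subcomplexes, 10 were negative, with a median of -1.03. Of 4 UTP-A proteins, 1 was negative (UTP9, at -0.53), and of 3 C/D core proteins, 1 was negative (NOP56, at -0.28). The exosome was split, 3 of 6 negative. In the difference bas1 minus BY4741 these groups had 14 of 16, 10 of 12, 2 of 4, 2 of 3 and 4 of 6 negative members. Turned round in bas1 they had 7 of 16, 2 of 12, 3 of 4, 1 of 3 and 3 of 6. Whether the roles differ from each other was not tested.

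The UTP-A subcomplex, which is tied to transcription of the precursor RNA, held both extremes. UTP8 (YGR128C) was positive on all 8 arrays, at 0.16 and 0.25 on the bas1 arrays, 0.44 and 0.37 on the bas2 arrays, 1.75 on gcn4 and 0.62 on shm2, against 2.02 and 0.32 on BY4741. UTP10 never left the range -0.42 to 0.01 on its 7 arrays. UTP4 ranged from -0.54 to 0.99 and UTP5 from -1.17 to 0.64, both lowest on gcn4. In the UTP-B subcomplex, UTP18 stood at -1.55 and UTP21 at -1.29 on gcn4, and UTP21 at -1.53 on shm2. UTP6 and UTP13 stayed between -0.51 and 0.89 on their 7 arrays.

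Among other small subunit factors, RRP7, of the UTP-C group, stood at -2.03 on bas1 replicate 1, -0.26 and 0.21 on the bas2 arrays, 1.01 on gcn4 and -1.06 on shm2, against 2.24 and 0.29 on BY4741. Its partner UTP22 stayed between -0.21 and 0.30 on its 6 arrays. NOC4 stood at -1.34 and -2.22 in bas1, against 1.97 and -0.07 in BY4741, and its partner NOP14 at -0.55 and -1.51, against 0.78 and -0.14. The spots of NOC4 on bas1 replicate 2 stood at -3.60 and -0.84. RRP3, a helicase of small subunit processing, lay at -0.82 and -1.28, against 1.67 and -0.06. NOP14 and RRP3 thus lay low on both bas1 arrays and, of the BY4741 arrays, high on replicate 1 alone. On gcn4 NOP14 stood at 0.41 and RRP3 at 0.75.

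Factors that serve both subunits differed widely. RRP5, a long RNA-binding protein that bridges both pathways, stayed between -0.50 and 0.51 on all 8 arrays. RRP12, which helps export both particles, lay between -0.14 and 0.21 on 6 arrays and at -1.55 on bas1 replicate 2 and -1.37 on gcn4. Its value on bas1 replicate 2 rested on 1 spot. RRP14 had the second widest range of the set, from -3.14 on bas1 replicate 1 to 2.72 on BY4741 replicate 1, and RRP36 had the widest, 6.72.

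The C/D core proteins did not move as a unit. NOP58 stood at 0.41 and 0.64 on the bas1 arrays, 0.24 and 0.79 on the bas2 arrays, 0.53 on gcn4 and -0.47 on shm2, against 1.18 and -0.08 on BY4741. NOP1 was highest on shm2 (1.34) and lowest on BY4741 replicate 1 (-1.33), the reverse of NOP58. NOP56 was near NOP58 on bas2 replicate 2 (0.75) and far above it on gcn4.

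Of the large subunit factors, NSA1 (YGL111W), a protein of an early particle, varied least, from 0.19 on BY4741 replicate 3 to 0.86 on BY4741 replicate 1, and was positive on all 8 arrays. NSA2, another factor of these particles, stood at -1.22 and -1.70 in bas1, -0.25 and 0.05 in bas2, 1.29 on gcn4 and -0.85 on shm2, against 2.15 and -0.44 in BY4741. NOC2 ranged from -0.39 to 1.23 and its partner NOC3 from -1.05 to 0.40. DBP3, a helicase that speeds cutting in the first spacer, stood at -0.49 and -1.16 in bas1, against 1.23 and 0.05 in BY4741. NOP4, an RNA-binding protein, stood at -1.15 and -1.32, against 2.32 and 0.00. The large subunit thus held steady members such as NSA1 beside members that ranged over several units, such as NSA2.

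In the exosome, RRP6 (YOR001W), its nuclear exonuclease, was positive on all 8 arrays, between 0.06 and 0.64. RRP40 lay between -0.36 and 0.77. The ring and cap subunits RRP4, RRP42 and RRP45 stood at -2.58, -2.22 and -2.43 on bas1 replicate 2 and at -0.05, 0.70 and -0.20 on bas1 replicate 1. Their spots on bas1 replicate 2 parted by 1.60 to 1.86, yet all 6 of these spots were below -1. RRP43 stood at 0.35 and 0.49 on the bas1 arrays, so the low values on bas1 replicate 2 did not extend to every subunit.

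Only NSA1, RRP6 and UTP8 were positive on all 8 arrays among the 43 genes measured on all of them (6.98%, against 4.73% of 3168 such genes), and none was negative on all. With the bas1 sign turned NOP12 and UTP9 were the 2 genes positive on all 8. Without centring the sign of a small ratio can change, since the array medians before centring ran from -0.78 to 0.65.

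The order of the genes within an array was shared by some pairs of arrays and turned round in others. These are correlations across genes, which share the 2 arrays of a pair and are not independent replicates. Over the 64 genes, bas1 replicate 1 and BY4741 replicate 1 correlated at r = -0.62, against -0.35 over all genes. Bas1 replicate 1 and bas2 replicate 1 correlated at r = 0.81, against 0.63 over all genes. Bas1 replicate 2 and bas2 replicate 2 correlated at r = 0.14 over 45 genes, against 0.49 over all genes. The bas1 pair correlated at 0.41 (45 genes; 0.08 over all genes), the bas2 pair at 0.31 (61 genes; 0.16 over all) and the BY4741 pair at 0.51 (0.39 over all). The gcn4 array and BY4741 replicate 1 correlated at 0.50 (63 genes; 0.64 over all).

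**Figure D4:**
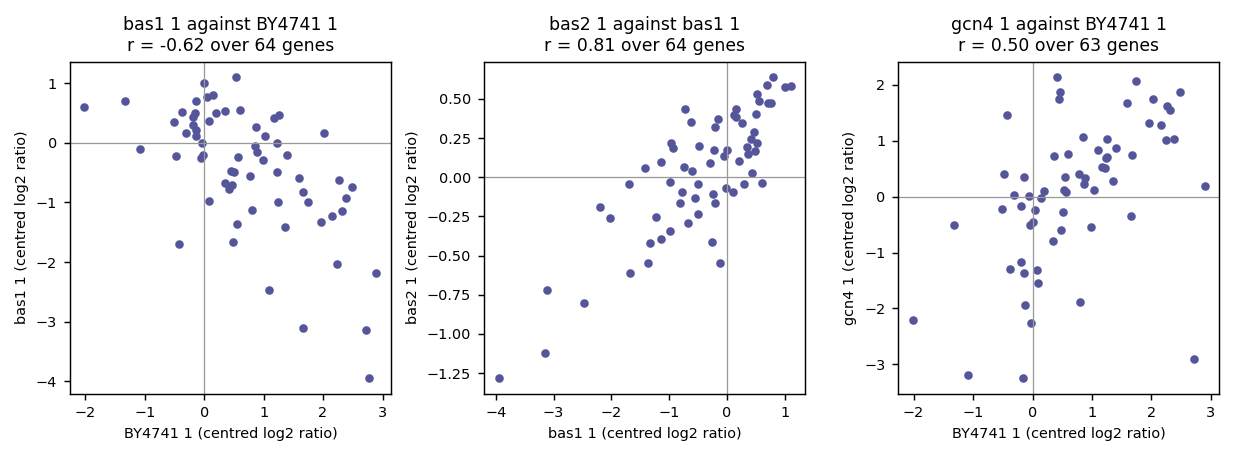
Each point is a ribosome biogenesis gene, with its centred log2 ratio on 2 arrays. The left panel runs downward (bas1 replicate 1 against BY4741 replicate 1, r = -0.62), the middle panel upward (bas2 replicate 1 against bas1 replicate 1, r = 0.81) and the right panel upward (gcn4 against BY4741 replicate 1, r = 0.50).

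Many of the genes at the extremes had short coding sequences. Coding length ran from 591 bases in NOP19 to 7482 in UTP20, with a median of 1539, against 1269 over all genes. The 32 shorter genes had medians of -0.70 on bas1 replicate 1 (32 genes) and -1.38 on bas1 replicate 2 (22 genes), 0.53 on gcn4 (31 genes), and 0.99 on BY4741 replicate 1. The longer genes had medians of -0.06, -0.17, -0.08 and 0.35 on the same arrays. Spearman's rho between ratio and length was 0.28 and 0.43 on the bas1 arrays and -0.34 on gcn4, against -0.32 and -0.29 on BY4741 replicates 1 and 3. Over all genes it was 0.13, 0.13, -0.39, -0.25 and -0.17. On the bas2 and shm2 arrays rho lay between -0.05 and 0.03 over these genes.

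In the difference bas1 minus BY4741, 20 of 22 shorter genes were negative, with a median of -1.46, and 15 of 23 longer ones, with a median of -0.49. Under the turned bas1 sign 6 of the 22 and 12 of the 23 were negative, with medians of 0.52 and -0.01. With a curve of ratio on coding length removed from every array, the median difference over the 45 genes was -0.80, against -0.65 with the length left in. The part of length in the single low values was not tested further.

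**Figure D5:**
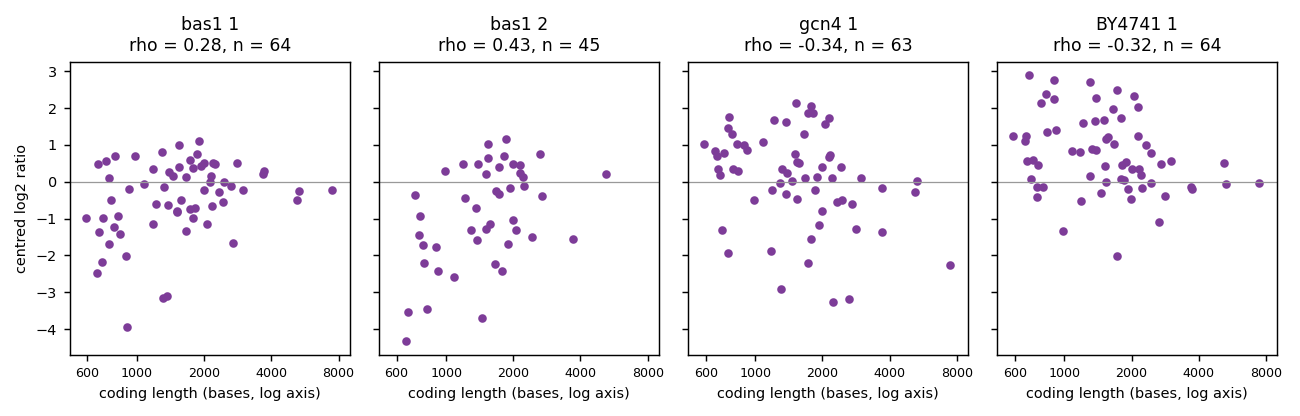
Centred log2 ratio (vertical axis) of each ribosome biogenesis gene against its coding length in bases (horizontal log axis) on 4 arrays. The lowest points on both bas1 arrays and the highest on BY4741 replicate 1 lie among shorter genes, and UTP20, at 7482 bases, stands at -2.27 on gcn4, has no value on bas1 replicate 2 and lies nearer 0 on the others.

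The 2 spots of a gene usually lay close together, but several extreme values above came from spots that parted or from 1 spot. How the disagreement divides between arrays and spots was not tested. The median absolute difference between the spots of a ribosome biogenesis gene was 0.053 and 0.221 on the bas1 arrays, 0.059 and 0.158 on the bas2 arrays, 0.063 on gcn4 and 0.138 on shm2, against 0.056 and 0.044 on the BY4741 arrays. Spots parted by over 1 for 1 and 6 genes on the bas1 arrays, 0 and 4 on the bas2 arrays, 3 on gcn4 and 6 on shm2, against 0 on either BY4741 array. A single spot gave the values of DBP3, DBP6, NOC3, NOP15, NOP8 and RRP12 on bas1 replicate 2. The same held for RRP14, RRP43 and RRP46 on bas2 replicate 2 and for RRP14, RRP5 and UTP9 on shm2. On BY4741 replicate 1 the widest gap was 0.434, so the high values of RRP36, NOP16 and UTP9 there were seen at both of their spots.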

How the data were processed

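The deposited values are log2 channel ratios per spot. Scanning used a GenePix 4000B and GenePix Pro 3.0, per the labels' protocols. Which dyes, ratio direction, background correction and normalization the authors used is not given in the sources used here. Precision is limited by the number of arrays.

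Of 12800 spots, 11138 carried 1 gene symbol, 0 several and 1662 none, and 11128 were matched to RefSeq (assembly R64) by gene identifier. Spots were averaged per gene and arrays centred on their median. A gene was tested where every array of the groups compared had a value. Strain means were fitted with limma 3.58.1 in R 4.3.3 (lmFit, eBayes, two-sided), with 5 means over 8 arrays and at most 3 residual degrees of freedom. The labels do not say that replicates were separate cultures, so p-values measure the spread between arrays. The fit was also run on simulated data in which every array had the same spread. The real arrays differ in spread, so that run cannot show how the p-values behave here.

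The gene set, roles and lists were chosen with earlier results of these data known. Named were genes past the adjusted threshold, the 5 highest and 5 lowest per strain mean (3 with 1 array), the same for differences among genes whose arrays do not overlap, genes of 1 sign on all 8 arrays, and representatives of each role; some others (such as NOP8, UTP20 and NOP4) were named after their values were seen. Alternatives covered centring, array spread, spots, genes tested, coding length, arrays left out, the replicate block, the title form and the bas1 sign.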

Additional observations from a re-analysis of the deposited data

How the results depend on the processing

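The number of arrays limits precision, and at most 3 residual degrees of freedom support each test. Over all alternatives, 120 medians kept their sign and stayed within the spread between arrays, 12 moved further and 10 changed sign, and the causes were not tested. Of 1145 values of named genes, 994 stayed within the SE of that gene and 151 moved further. Changes of sign were counted for 27 values. All of these counts include results that an alternative could not change. With a bas1 array left out, for example, the medians of the other strains stayed exactly as they were. The counts of 120 and 994 are therefore no measure of stability. Without centring the medians were 0.79 for BY4741, -0.026 for gcn4, -0.027 for shm2, and -1.42, -0.84, -0.80 and -0.94 for the differences of bas1, bas2, gcn4 and shm2 from BY4741. Without centring the share above every BY4741 array was 2.22% in bas1 (8.72% of all genes) and 1.64% in bas2 (3.1%), and the share below was 26.2% in bas2 (28.8%). With arrays scaled to a common median absolute deviation 21.3% lay below in bas2 (23.2%). With genes measured on all 8 arrays only, bas2 had a median of 0.20, gcn4 minus BY4741 one of 0.046, and 6.98% lay below in bas2 (13.7% of such genes). With both bas1 arrays turned the median was 0.53 for bas1 and 0.19 for bas1 minus BY4741, and 20% lay below every BY4741 array.

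Leaving out 1 array at a time, the medians ran from -0.0012 to 0.56 for BY4741, from 0.079 to 0.20 for bas2, from -1.12 to -0.52 for bas1 minus BY4741, from -0.52 to 0.076 for bas2 minus BY4741, from -0.55 to 0.15 for gcn4 minus BY4741 and from -0.58 to 0.072 for shm2 minus BY4741. The sign changes came without BY4741 replicate 1, and a difference of -0.55 for gcn4 came without BY4741 replicate 3. The share of genes below every BY4741 array in bas2 ran from 11.5% to 60.7%, the highest without BY4741 replicate 3 (42.8% of all genes), and that above ran from 18.03% to 42.6%, the highest without BY4741 replicate 1 (29.5%). Members past an adjusted p of 0.05 ran from 0 to 9 for bas1 and from 0 to 6 for bas1 minus BY4741, the highest without bas1 replicate 1. Bas1 replicate 2 and bas2 replicate 2 were also left out together. Then 32.8% lay below and 32.8% above every BY4741 array in bas2 (35.6% and 35.9% of all genes). The count past the adjusted threshold moved from 0 in gcn4, a single array, and is not given. The shares below or above every BY4741 array under each alternative and the title forms were added after seeing the data.

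The labels do not say that a replicate number marks a shared batch. Number 3 stands on a single array, of BY4741, so with the number as a block BY4741 rests on replicate 1. The block differences of gcn4 and shm2, -0.55 and -0.58, are therefore the same as without BY4741 replicate 3. Deviations of bas1 and bas2 arrays of the same number correlated at 0.54 over 3260 genes, and over all genes arrays of number 1 and of number 2 correlated at 0.63 and 0.49 between these strains, against 0.08 and 0.16 within bas1 and bas2. With the replicate number as a block the medians were 0.028 for bas2, 0.082 for gcn4, -0.011 for shm2 and 0.58 for BY4741, and -1.09, -0.55, -0.55 and -0.58 for the differences of bas1, bas2, gcn4 and shm2 from BY4741, and 0 members passed. With the title form as a block the medians were 0.042 for gcn4, 0.28 for shm2, -0.33 for gcn4 minus BY4741 and -0.039 for shm2 minus BY4741, and 0 members passed. A fit to the arrays of gcn4 or shm2 alone could not be made, since each is 1 array.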

Other observations

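Several ribosome biogenesis genes lie next to another gene of the process in the RefSeq order. Ratios had the same sign on 6 of 8 arrays for NSA2 and LCP5, 5 of 7 for RRP3 and SSF1, 8 of 8 for DBP8 and NMD3, 5 of 8 for UTP9 and RIX1, 3 of 5 for RPC17 and NOP9, 0 of 7 for NOC2 and RET1, 5 of 8 for RRP15 and NOC4, and 4 of 8 each for DBP7 and RPC37, PWP1 and NOP56, and RPC19 and DBP2. The divergent pair NSA2 and LCP5, the second of which encodes a small subunit factor, stood at -1.22 and -1.12 on bas1 replicate 1, -1.70 and -3.16 on bas1 replicate 2, 1.29 and 1.15 on gcn4 and -0.85 and -0.88 on shm2, against 2.15 and 1.79 on BY4741 replicate 1. The divergent pair DBP7 and RPC37, a polymerase III subunit, stood at -3.25 and 0.40 on gcn4. The tandem pair PWP1 and NOP56 stood at -0.15 and 2.14 there, and RPC19, a subunit shared by polymerases I and III, and DBP2 at 1.41 and -3.20. The convergent pair RRP15 and NOC4 stood at -1.94 and 1.31 on the same array.

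Among the other assembly factors, the highest means over all arrays were those of FAL1 and ROK1, both RNA helicases. FAL1 owed its mean to bas1 replicate 2, at 7.84, while it stood at -1.03 on bas1 replicate 1, against 0.05 and -0.09 on the BY4741 arrays. GAR1, a core protein of H/ACA particles, was negative on 7 arrays and stood at 0.92 on shm2. BUD23, which methylates a guanine of the small subunit RNA, stood at -0.10 and -3.19 on the bas1 arrays, against -0.51 and -0.42 on the BY4741 arrays. Of the polymerase subunits, RPA12 was positive on 7 arrays, up to 1.69 on shm2, and RPA135 was negative on 5, at -1.35 on bas1 replicate 2 and -1.09 on BY4741 replicate 1.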
